A study of Mus musculus with 6 samples.

Results

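ISG15 is a ubiquitin-like protein that is attached to other proteins, a reaction called ISGylation, and Isg15 and the genes of the enzymes that attach and remove it were followed here in ATM KO and vector control 4T1 cells. The members were the genes listed under the symbols Isg15, Uba7, Ube2l6, Usp18, Herc6 and Usp41, of which 5 were found among the 13405 genes listed and Usp41 was not. All 5 passed the filter on low values, a mean of at least 10 normalized read counts over the 6 libraries, which left 12149 genes for testing.

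4T1 cells, a murine breast cancer line from the Balb/c strain, were grown in vitro. RNA was sequenced from 3 libraries of ATM KO cells, whose targeted gene encodes a kinase activated by broken DNA, and from 3 libraries of cells carrying a vector control. The labels give no treatment or time, do not say how the knockout was made or whether it is 1 clone, and do not tie each library to a culture of its own. The p-values therefore reflect only how far these libraries lie apart, and that distance may be technical. The series title links inhibition of ATM to leaked mitochondrial DNA and the cGAS-STING pathway, whose output is type I interferon, and setting the knockout beside its control addresses genes under interferon control.

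As background, ISGylation runs through a cascade like that of ubiquitin. UBA7 activates ISG15, the conjugating enzyme UBE2L6 takes it over, and a HERC ligase (HERC6 in the mouse, HERC5 in human cells) joins it to a target, while USP18 cleaves it off again. All of these genes are induced by interferon through ISGF3, a transcription factor complex with STAT2 and IRF9 that binds the interferon-stimulated response element (ISRE), and USP18 also binds the receptor subunit IFNAR2 and damps the signal.

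Between 22494919 and 32341508 reads per ATM KO library and between 27264975 and 30042957 reads per vector control library were assigned to the listed genes. Atm mRNA stood at 1959, 2220 and 1591 normalized read counts in ATM KO 1 to 3, against 1978, 1613 and 1519 in vector controls 1 to 3, so the groups overlapped and the level of this mRNA does not check the labels. Vector control 1 was unlike its fellow controls: across the tested genes its log2 values correlated at 0.914 with those of each of them, while vector controls 2 and 3 correlated at 0.997 with each other. The libraries did not sort by group: vector control 1 was closest to ATM KO 2 (0.965), and ATM KO 3 was closer to vector controls 2 and 3 (0.961 with each) than to ATM KO 1 (0.958) or ATM KO 2 (0.930). Counts of vector controls 2 and 3 were further apart than sampling alone gives (a chi-square of 16.3 per gene, against 76.9 or more in every other pair), and both were kept as separate samples. Of the 8 epithelial markers, Krt5 was at 0 in every library, and the other 7 were detected, with a summed level of 110019 to 147310 in ATM KO and 86476 to 112322 in vector control libraries. Among these 7, 2 (Krt14 and Cldn4) lay above every control and 0 below, where 5.7% of all tested genes lay above and 5.48% below. Krt14 stood at 2223, 1369.9 and 2311 in ATM KO 1 to 3, against 149.9, 684 and 654 in vector controls 1 to 3. The rest of the 7 overlapped, among them Krt18, Krt7 and Cdh1, the most abundant. The leukocyte list was represented by Cd68, Csf1r and Cd14 (3 of 10 markers), summing to 1152 to 2667 in ATM KO and 943 to 1922 in vector control libraries, and its other markers, Ptprc among them, were not among the listed genes. Of the 3, only Csf1r lay above every control, as did 5.7% of all tested genes. Csf1r stood at 968, 438 and 1119 in ATM KO 1 to 3, against 229, 378 and 387 in vector controls 1 to 3. Cd68 (log2 fold change -0.92) and Cd14 (0.39) overlapped. These markers were not called by limma, edgeR or DESeq2. The fibroblast list was represented by 3 of 8 genes, at 344 to 754 in ATM KO and 146 to 547 in vector control libraries, and the endothelial list by Cdh5 alone, at 0 to 6.84 and 2.10 to 11.7. The part of other cells in the results was not tested.

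Isg15 lies on chromosome 4 (156199424 to 156200818, minus strand, GRCm38), Uba7 on chromosome 9 (107975505 to 107984060, plus strand), Ube2l6 on chromosome 2 (84798828 to 84810335, plus strand), and Herc6 and Usp18 both on chromosome 6 (57581000 to 57664632 and 121245906 to 121270917, plus strand). Promoter sequences were in the RefSeq table (GRCm38.p6) for Isg15, Uba7, Ube2l6 and Herc6. They were searched on both strands, from 250 bases before to 50 bases after the start, for the ISRE core (GAAA, any 2 bases, GAAA), for the shorter core AANNGAAA that interferon regulatory factors bind, which every ISRE core contains, and for the STAT core TTCNNNGAA. The sequences below are shown because these genes share an inducer; each runs 5′ to 3′ on the gene's strand, and capitals mark matches to any of these letters.
Isg15, chr4:156200819-156200968: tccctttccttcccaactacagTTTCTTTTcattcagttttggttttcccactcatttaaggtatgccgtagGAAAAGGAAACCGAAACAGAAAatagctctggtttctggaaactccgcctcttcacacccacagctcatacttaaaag
Uba7, chr9:107975529-107975558: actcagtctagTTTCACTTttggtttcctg
Ube2l6, chr2:84798678-84798827: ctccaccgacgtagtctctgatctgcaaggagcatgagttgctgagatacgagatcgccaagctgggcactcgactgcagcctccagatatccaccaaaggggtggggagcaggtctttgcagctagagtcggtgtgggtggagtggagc
Herc6, chr6:57580842-57580991: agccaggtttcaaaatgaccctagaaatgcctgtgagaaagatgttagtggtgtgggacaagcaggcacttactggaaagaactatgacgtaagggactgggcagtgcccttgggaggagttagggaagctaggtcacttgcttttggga
The Isg15 promoter held 3 overlapping ISRE cores in 1 block from -78 to -57 relative to the start. A match to the ISRE core was present in 3.44% of 32851 promoters of the same length. Uba7 had no ISRE core but held 1 match to the shorter core, on the reverse strand at -27 to -20; 23.9% of promoters held that core. The GENCODE start of Uba7 lies ahead of the RefSeq start used here, so the stretch shown falls within the annotated gene. Ube2l6 and Herc6 held none of the 3 motifs in this window, and the STAT core, present in 8.30% of promoters, was in none of these 4 windows. A match is a description of the letters and not a measured binding site.

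Isg15 mRNA, which encodes the modifier itself, exceeded the highest control in all 3 ATM KO libraries, where the mean was 3.69 times that of the controls. In bulk RNA, fewer cells expressing a gene and less RNA per cell cannot be told apart, here and in all values that follow. Isg15 stood at 331, 347 and 145 normalized read counts in ATM KO 1 to 3, against 67.1, 68.7 and 87.2 in vector controls 1 to 3. The 3 controls lay close together, and ATM KO 3 was well below the other knockout libraries but still above the highest control. The mean was 274 ± 113 in ATM KO and 74.3 ± 11.2 in vector control cells (SD, n = 3 each), and the log2 fold change was 1.78 (SE 0.40, 95% interval 0.81 to 2.74). By limma its unadjusted p was 0.00380 and its adjusted p 0.999. By edgeR its unadjusted p was 0.00280 and its adjusted p 1.000. DESeq2 on the recovered reads called Isg15 higher, with an adjusted p of 0.00481. That call remained without vector control 1 (adjusted p = 0.00845) and without ATM KO 3 (1.50e-10). It was lost without ATM KO 1 (adjusted p = 0.236), ATM KO 2 (0.116), vector control 2 (0.219) or vector control 3 (0.0736), with DESeq2 log2 fold changes between 1.67 and 2.02 in these 4 fits. The libraries held 387, 327 and 113 Isg15 reads in ATM KO 1 to 3, against 69, 71 and 83 in vector controls 1 to 3.

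**Figure D1:**
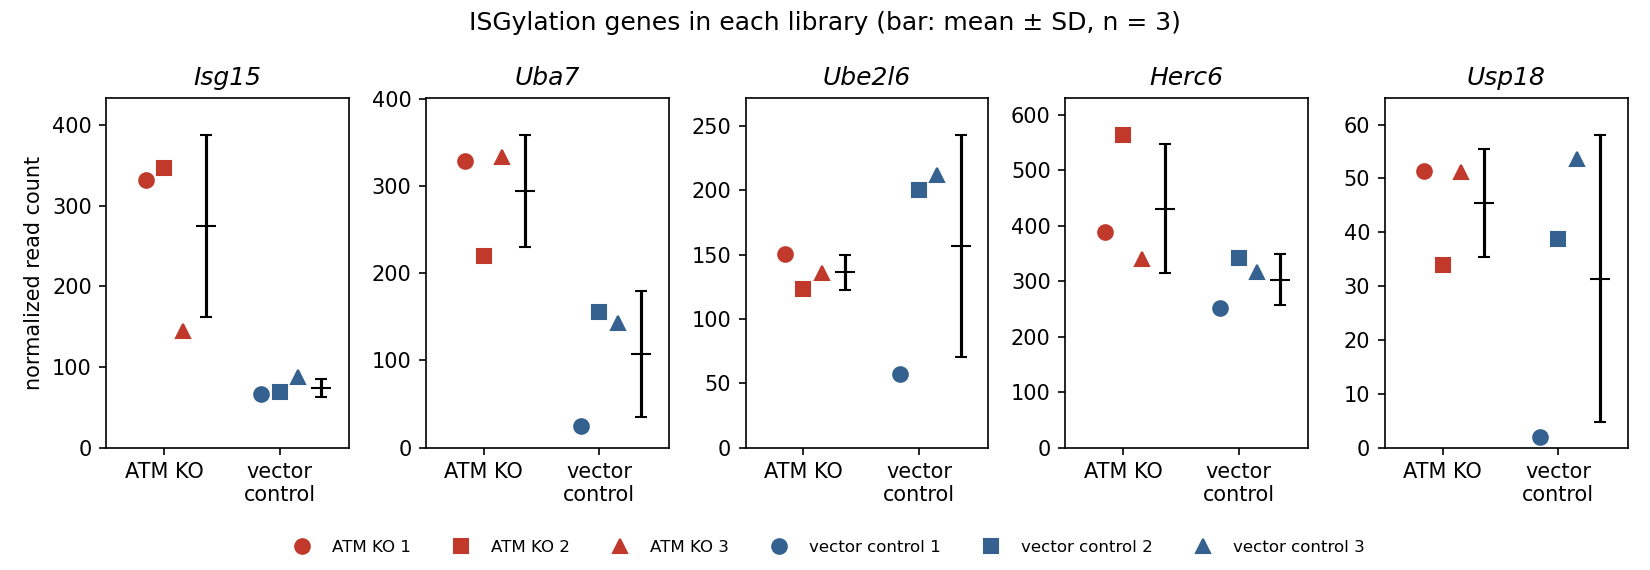
Normalized read count (vertical axes, each from 0) of the 5 ISGylation genes in ATM KO and vector control libraries, with 1 symbol per library and the mean ± SD of 3 libraries beside the points. Isg15 and Uba7 were higher in all 3 ATM KO libraries than in all controls, and vector control 1 was the lowest library for every gene shown, at 1.95 for Usp18.

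Uba7, the activating enzyme at the head of the cascade, was the other member with no overlap between the groups. It stood at 329, 219.6 and 333 normalized read counts in ATM KO 1 to 3, against 24.3, 156 and 143 in vector controls 1 to 3. Vector control 1 was far below the other controls, which in turn were below every ATM KO library. The mean was 294 ± 64.1 in ATM KO and 108 ± 72.4 in vector control cells (SD, n = 3 each), with a log2 fold change of 1.80 (SE 0.73, 95% interval 0.053 to 3.55). Without vector control 1 the log2 fold change was 0.95 (SE 0.26), and it lay between 1.70 and 2.26 when any other library was left out. Uba7 was not called by limma (unadjusted p = 0.0451, adjusted p = 0.999), by edgeR (unadjusted p = 0.0666, adjusted p = 1.000) or by DESeq2 (unadjusted p = 0.0284, adjusted p = 0.657). DESeq2 called it when vector control 1 was left out (log2 fold change 0.98, adjusted p = 0.0447), a fit that called 544 genes. An annotated gene of the same strand, Gm20661, shares 233 exon bases with Uba7 and is not among the listed genes, so reads from that stretch could be lost.

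Ube2l6, which encodes the conjugating enzyme, showed no difference beyond its spread. It stood at 151, 123 and 136 normalized read counts in ATM KO 1 to 3, against 57.4, 200.2 and 212 in vector controls 1 to 3. The knockout libraries lay close together and between vector control 1 below them and vector controls 2 and 3 above them. The means were 136 ± 13.8 in ATM KO and 157 ± 86.1 in vector control cells (SD, n = 3 each), and the log2 fold change was 0.012 (SE 0.53, 95% interval -1.27 to 1.30; adjusted p = 0.999 by limma). The sign depended on the fit: edgeR and DESeq2 both gave a log2 fold change of -0.20. Without vector control 1 all 3 ATM KO libraries were below both remaining controls, as they were for 21.8% of all tested genes. The log2 fold change was then -0.60 (SE 0.22, adjusted p = 0.317 by limma), and DESeq2 gave -0.59 (adjusted p = 0.217).

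Herc6, which encodes the mouse ISG15 ligase, had a higher mean in ATM KO cells, but the groups overlapped and limma, edgeR and DESeq2 did not call it. It stood at 389, 562 and 340.4 normalized read counts in ATM KO 1 to 3, against 251, 341 and 316 in vector controls 1 to 3. The groups overlapped only where ATM KO 3 lay beside vector control 2. The means were 431 ± 117 in ATM KO and 303 ± 46.7 in vector control cells (SD, n = 3 each), with a log2 fold change of 0.48 (SE 0.27, 95% interval -0.16 to 1.13; adjusted p = 0.999 by limma). Without ATM KO 2, the highest library, the log2 fold change was 0.28 (SE 0.26). Herc6 shares 1269 exon bases with Gm45193, a transcript of the same strand that is not among the listed genes.

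Usp18, the gene of the ISG15 protease and feedback inhibitor, had the lowest values of the 5 genes and the widest range relative to its lowest value. It stood at 51.3, 34.0 and 51.2 normalized read counts in ATM KO 1 to 3, against 1.95, 38.7 and 53.6 in vector controls 1 to 3. Vector controls 2 and 3 fell within or beside the range of the knockout libraries, and vector control 1 held 2 reads, with an exact 95% Poisson interval of 0.242 to 7.22 reads that covers counting error only. The means were 45.5 ± 9.99 in ATM KO and 31.4 ± 26.6 in vector control cells (SD, n = 3 each). The log2 fold change of 1.30 (SE 1.11, 95% interval -1.38 to 3.98; adjusted p = 0.999 by limma) was -0.026 (SE 0.36) without vector control 1. On the recovered reads it was 0.53 by edgeR and 0.54 by DESeq2. Gm44148, a noncoding gene on the opposite strand, shares 124 exon bases with Usp18, and the use of strand in counting was not given in the sources used here.

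Counted together, 2 of the 5 members, Isg15 and Uba7, lay above every control in all ATM KO libraries and 0 lay below, where 5.7% of all tested genes were above and 5.48% below. Limma called 0 of the 5 members and 0% of all tested genes at an adjusted p of 0.05. At an unadjusted p of 0.05 it passed 505 genes (4.16%). EdgeR also called 0 members and 0% of genes, with 522 genes (4.3%) at that unadjusted p. DESeq2 called 1 member, Isg15, where 84 tested genes (0.691%) were called, 0.56% higher and 0.132% lower, and 5.9% passed an unadjusted p of 0.05. The groups did not overlap, in either direction, for 11.2% of tested genes. By limma all 5 log2 fold changes were positive, with a median of 1.30, while 48.6% of all tested genes were positive and their median was -0.0090. By edgeR and DESeq2 4 of the 5 were positive, all but Ube2l6, with medians of 0.53 and 0.54. Without vector control 1 the median of the 5 was 0.36, Isg15 and Uba7 still lay above every remaining control, and Ube2l6 lay below; 19.6% of tested genes were then above and 21.8% below.

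Each member had its lowest value in vector control 1 (5 of 5), where 31.2% of all tested genes had theirs, but the depth of this drop varied among the members. Relative to the mean of vector controls 2 and 3 on the log2(value + 1) scale, vector control 1 differed by -3.98 for Usp18, -2.57 for Uba7 and -1.83 for Ube2l6. The difference was -0.39 for Herc6 and -0.20 for Isg15. On the same scale ATM KO 1 to 3 differed from vector controls 2 and 3 by 2.08, 2.15 and 0.89 for Isg15 and by 1.13, 0.56 and 1.15 for Uba7. For Ube2l6 these differences were -0.45, -0.74 and -0.60. Usp18 (0.17, -0.41 and 0.17) lay nearer to these controls, as did Herc6 in ATM KO 1 (0.24) and ATM KO 3 (0.051) but not in ATM KO 2 (0.77). The order of the knockout libraries was not shared either: ATM KO 3 was the lowest of the 3 for Isg15 and Herc6 and the highest for Uba7. What set vector control 1 apart was not tested.

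**Figure D2:**
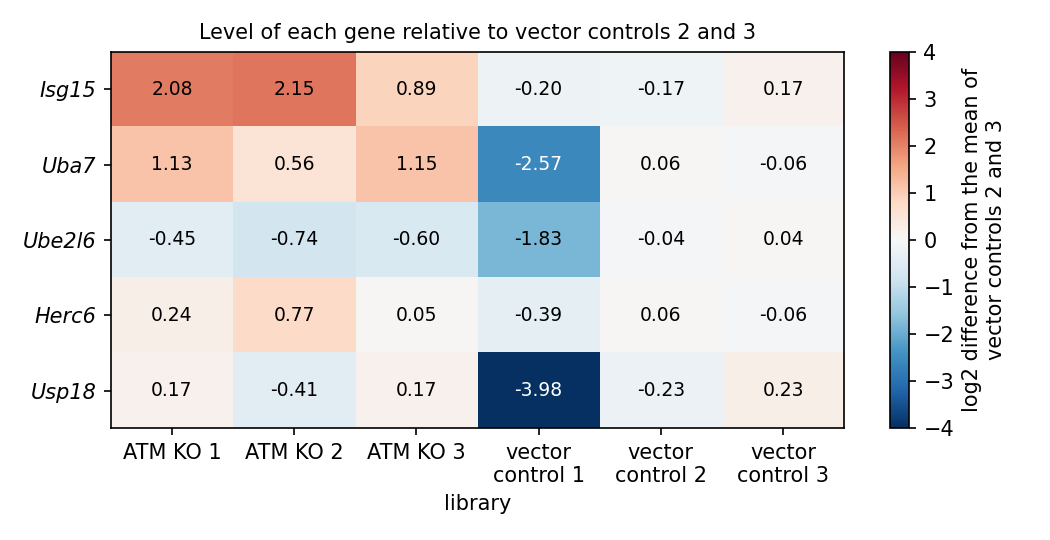
Level of each ISGylation gene (rows) in each library (columns, ATM KO on the left), as the log2 difference from the mean of vector controls 2 and 3, with red higher and blue lower. The Isg15 row is high in the ATM KO libraries and near 0 in vector control 1 (-0.20), while Usp18 (-3.98), Uba7 (-2.57) and Ube2l6 (-1.83) are low in that library.

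**Figure D3:**
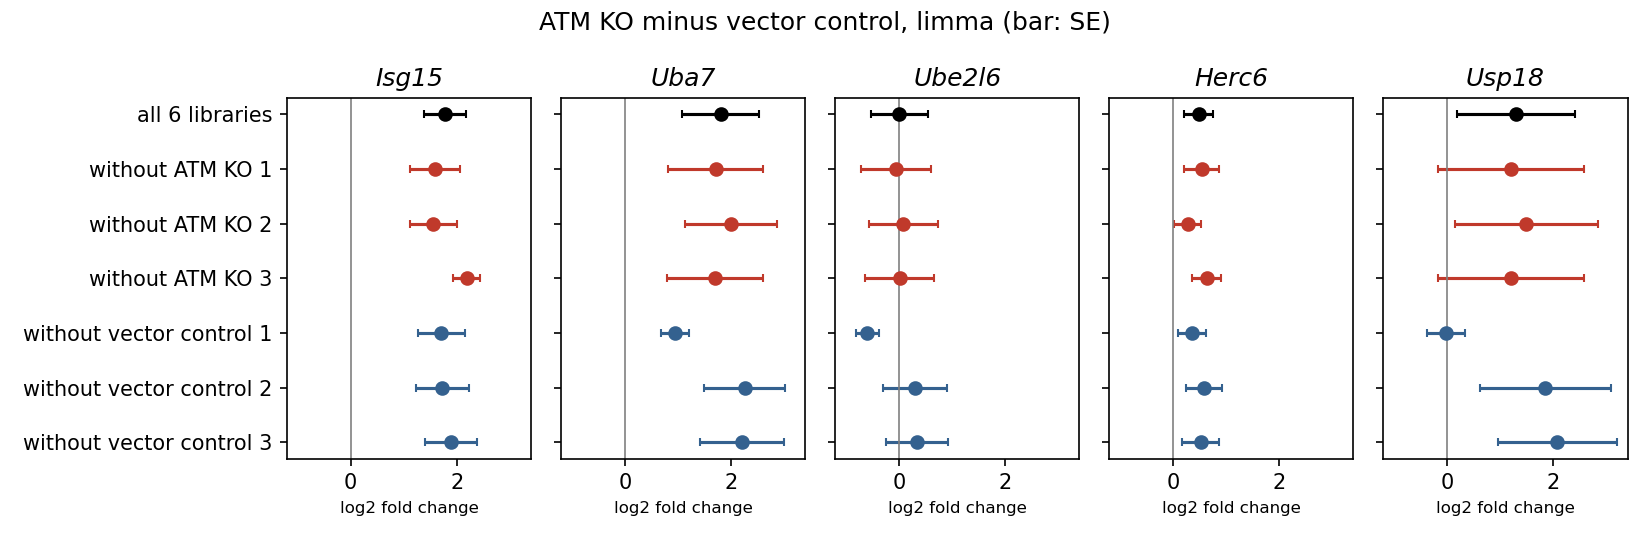
Log2 fold change, ATM KO minus vector control, from limma with all 6 libraries (black) and with each library left out in turn (red, an ATM KO library; blue, a vector control library), with the SE as a bar. Isg15 stays between 1.56 and 2.18, while without vector control 1 Uba7 is at 0.95, Ube2l6 at -0.60 and Usp18 at -0.026.

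Per length, Isg15 was the most abundant of the 5 in every ATM KO library. Normalized reads per kb of annotated exon for Isg15 were 438, 459 and 191 in ATM KO 1 to 3, against 88.8, 90.9 and 115 in vector controls 1 to 3. The next in ATM KO cells was Ube2l6 at 68.4 ± 6.89 per kb, followed by Herc6 at 46.4 ± 12.6 and Uba7 at 43.9 ± 9.58, and these last 2 did not differ beyond their spread. Usp18 was the least abundant in every library, at 16.3 ± 3.58 per kb in ATM KO and 11.3 ± 9.53 in vector control cells. In vector control cells Isg15 (98.3 ± 14.8) and Ube2l6 (78.5 ± 43.2) overlapped: Ube2l6 was above Isg15 in vector control 2 (100.3 against 90.9) and below it in vector control 3 (106 against 115). Herc6 followed at 32.6 ± 5.02 and Uba7 at 16.1 ± 10.8 per kb in vector control cells. With the length of the longest principal transcript instead, Uba7, Herc6 and Ube2l6 stood at 91.9, 90.3 and 87.5 per kb in ATM KO cells, so their order rests on the lengths used. With those lengths Isg15 still came first in each ATM KO library and Usp18 last in all 6, and Ube2l6 came first in vector controls 2 and 3.

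**Figure D4:**
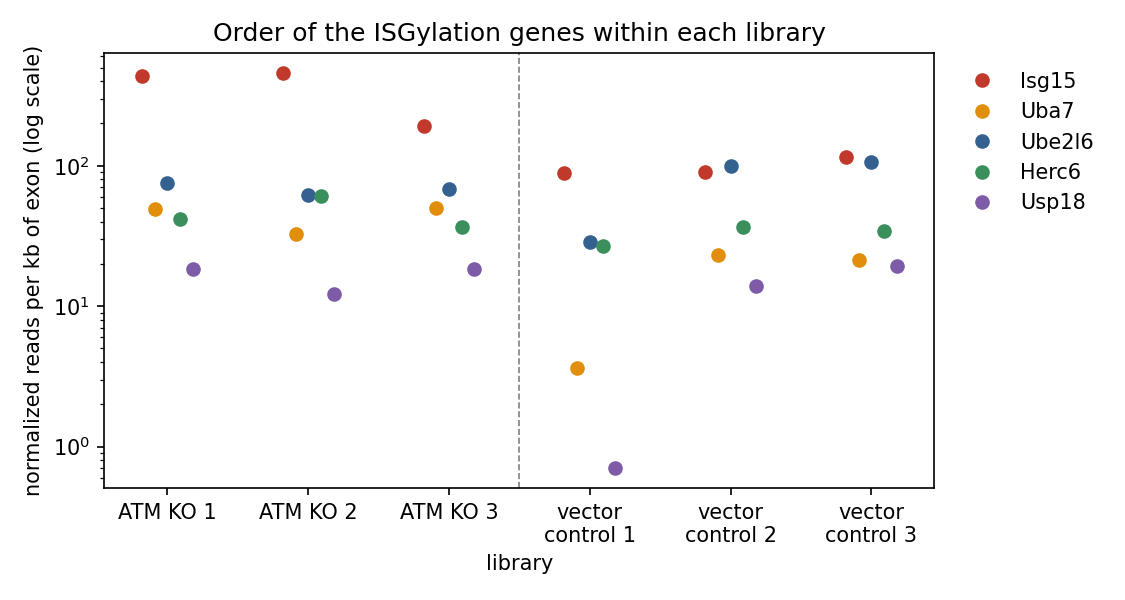
Normalized reads per kb of annotated exon (log scale) of the 5 ISGylation genes in each library, ATM KO to the left of the dashed line and vector control to the right. Isg15 stands at 191 or more in the ATM KO libraries, next to Ube2l6 in vector controls 2 and 3, and Usp18 is the lowest gene in each library.

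The supply of Isg15 mRNA relative to each enzyme's mRNA varied across libraries. These ratios of reads per kb were chosen after the values were seen and carry no test, and another choice of lengths would scale all 6 libraries alike. Isg15 per Herc6 was 10.5, 7.58 and 5.22 in ATM KO 1 to 3, against 3.29, 2.47 and 3.39 in vector controls 1 to 3, with no overlap. Isg15 per Ube2l6 was 5.81, 7.44 and 2.81 in ATM KO 1 to 3, against 3.09, 0.906 and 1.08 in vector controls 1 to 3, so ATM KO 3 lay beside vector control 1. Isg15 per Uba7 was 8.92, 14.0 and 3.85 in ATM KO 1 to 3, against 24.4, 3.90 and 5.40 in vector controls 1 to 3, and the ranges of the groups overlapped. Isg15 per Usp18 was 23.8, 37.7 and 10.4 in ATM KO 1 to 3, against 127, 6.55 and 6.01 in vector controls 1 to 3, with the value of vector control 1 resting on 2 Usp18 reads.

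None of the 12 type I interferon signalling genes tested was called by limma, edgeR or DESeq2. By limma 11 had a positive and 1 a negative log2 fold change, with a median of 0.15, and by edgeR and DESeq2 10 were positive. Without vector control 1 the median was 0.013, and 7 of the 12 were lowest in that library, where 31.2% of all tested genes were lowest. Stat2, Irf9, Irf3 and the receptor gene Ifnar2 were named after their values were seen. Stat2 stood at 829, 654 and 879 in ATM KO 1 to 3, against 357, 955 and 966 in vector controls 1 to 3, and Irf9 at 418, 271 and 619 against 191, 434 and 398. In both, vector control 1 was the lowest library and the other controls overlapped or exceeded the knockout libraries. Ifnar2, whose product USP18 binds, stood at 1004, 835 and 813 in ATM KO 1 to 3, against 657, 670.4 and 599 in vector controls 1 to 3, with no overlap. Of the 12 genes 2, Ifnar2 and Irf3, lay above every control and 0 below, where 5.7% of all tested genes lay above and 5.48% below. By abundance the list was led by the kinase gene Jak1 (5251, 4629 and 6444 in ATM KO 1 to 3, against 4844, 5219 and 5284), Ifnar1 (2837, 2286 and 3475, against 1443, 3246 and 3381) and Skp2, a subunit of an SCF ubiquitin ligase (1990.0, 3392 and 1868, against 3229, 1974 and 1838), and all 3 overlapped.

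Ligases and proteases that handle ISG15 in human cells outside the core machinery gave no calls by limma, edgeR or DESeq2. Of 8 named, Usp13 was not among the listed genes. Of the 7 tested, 3 were positive and 4 negative by limma, with a median log2 fold change of -0.071, while by edgeR and DESeq2 1 was positive and 6 negative. The ligase gene Trim25 stood at 5045, 4989 and 4652 in ATM KO 1 to 3, against 3959, 5040.0 and 5125 in vector controls 1 to 3. Arih1, also a ligase gene, stood at 7909, 7186 and 8930.3 in ATM KO 1 to 3, against 6792, 9476 and 9146. Usp14, a proteasome-bound protease, stood at 4606, 5161 and 4424 in ATM KO 1 to 3, against 6212, 4790.4 and 4641. All 3 overlapped between the groups. Usp5 was the only member of the list below every control (0 were above), where 5.48% of all tested genes lay below and 5.7% above.

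The relatives of the core enzymes that serve ubiquitin and other modifiers also gave no calls by limma, edgeR or DESeq2 with all 6 libraries. Of the 9 activating enzyme genes, 5 were positive and 4 negative, with a median of 0.057, and without vector control 1 the median was 0.25. Uba1, the main ubiquitin-activating enzyme, stood at 30177, 29222 and 32691 in ATM KO 1 to 3, against 25822, 22370.4 and 22950 in vector controls 1 to 3, with no overlap. It was the only 1 of the 9 above every control (0 lay below), where 5.7% of all tested genes lay above and 5.48% below. DESeq2 without vector control 1, the fit that called Uba7 and 544 of the 12149 tested genes, also called Uba1 (log2 fold change 0.44, adjusted p = 0.0402). Uba2 and Sae1, the subunits of the SUMO-activating enzyme, overlapped, at 5040 to 8228 and 4008 to 7425 in ATM KO, against 5777 to 9994 and 4682 to 6834 in vector control libraries. Of the 7 conjugating enzyme genes related to Ube2l6, 5 were positive and 2 negative by limma and DESeq2 (4 and 3 by edgeR), with a median of 0.032 that was 0.18 without vector control 1. Its closest relative Ube2l3 stood at 4014, 4655 and 3234 in ATM KO 1 to 3, against 4159, 3716 and 3656. Ube2d3 (6808 to 7791 in ATM KO, against 6153 to 10484) and Ube2e1 (1902 to 2441, against 1887 to 2648) overlapped too.

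The other HERC genes were mostly lower in ATM KO libraries. By limma all 4 tested (Herc1 to Herc4) were negative, the median log2 fold change being -0.21, though Herc2 was at 0.019 by edgeR and 0.022 by DESeq2. Herc1, Herc3 and Herc4 (3 of the 4) lay below every control, where 5.48% of all tested genes did. Herc1, a giant guanine nucleotide exchange factor and ligase, stood at 3496, 3920 and 3636 in ATM KO 1 to 3, against 4443, 4124 and 4273 in vector controls 1 to 3. Herc4 stood at 2705, 2679 and 2560 in ATM KO 1 to 3, against 3350.2, 3039 and 2827. Herc2 overlapped, at 2893, 3260 and 1496 in ATM KO 1 to 3, against 3214, 2116 and 2208. None of the 4 passed limma, edgeR or DESeq2, and a difference between Herc6 and the others was not tested.

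Genes of proteins reported to carry ISG15, mostly from human cells, included 1 call. Of 19 named, Mx1 was not among the listed genes, and of the 18 tested 14 were positive and 4 negative (13 and 5 by edgeR and DESeq2), with a median of 0.16. Of these 18 genes 5 lay above every control and 1 below, where 5.7% of all tested genes lay above and 5.48% below, and DESeq2 called 1, where it called 0.691% of all tested genes. The gene called was Ifih1, which encodes MDA5, a sensor of long double-stranded RNA. Ifih1 stood at 638, 676 and 532 in ATM KO 1 to 3, against 286, 362 and 367 in vector controls 1 to 3 (log2 fold change 0.86, SE 0.21; adjusted p = 0.999 by limma and 0.0160 by DESeq2). The DESeq2 call was lost when ATM KO 1, ATM KO 2, vector control 2 or vector control 3 was left out (adjusted p between 0.330 and 0.684), as for Isg15.

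None of the nearest listed genes beside the members was called. Of 10 such neighbours 9 were tested, limma and DESeq2 called 0, and the groups overlapped in all 9. Over all tested genes limma called 0% and DESeq2 0.691%, and the groups did not overlap for 11.2%. With 9 genes, counts of 0 are near these shares. Agrn, which lies 1936 bases from Isg15 on its lower-coordinate side and encodes the basement membrane proteoglycan agrin, stood at 31205, 19239 and 37636 in ATM KO 1 to 3, against 13957, 21931 and 22546 in vector controls 1 to 3. AW011738, 2486 bases away on the other side, stood at 105, 80.6 and 104 in ATM KO 1 to 3, against 53.5, 60.9 and 86.2. Their log2 fold changes were 0.57 (SE 0.31) and 0.54 (SE 0.31). Beside Uba7, Traip stood at 448 to 833 in ATM KO and 405 to 1132 in vector control libraries, and Ip6k1 at 2270 to 3408 and 1736 to 2710. Beside Ube2l6, RP23-399J8.10 stood at 21.4 to 32.0 and 15.6 to 26.3, and Timm10 at 61.4 to 273 and 68.7 to 319. Beside Usp18, Pex26 stood at 647 to 1090.4 in ATM KO and 496 to 1023 in vector control libraries, and Slc6a13 was too low to test. Beside Herc6, Ppm1k stood at 309.8 to 662 and 255 to 1213, and Pyurf at 182 to 251 and 181 to 312.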

How the data were processed

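RNA-seq values of 3 ATM KO and 3 vector control libraries were used, grouped by title. Tools listed in the submitters' processing notes were STAR, HTSeq, DESeq2, SAMtools, cutadapt and Trim Galore, and builds GRCm38 and mm9, without roles. Each deposited value is a signal, a read count of a gene over a size factor of its library. This was inferred from the values: in each library they are whole multiples of 1 step, and all (100%) gave whole reads within 0.01 reads. Of 13405 listed genes, 13249 (98.8%) are in GENCODE M21, which gave coordinates and lengths.

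Log2(value + 1) was fitted with limma 3.58.1 in R 4.3.3 (moderated 2-sided test, trended variance), with Benjamini-Hochberg adjustment over the 12149 genes with a mean of at least 10 and a threshold of 0.05. This scale understates changes of low genes. On the recovered reads, edgeR 4.0.16 gave quasi-likelihood tests and DESeq2 1.42.0 Wald tests. The scripts were tested on simulated data. Members, lists and rules were chosen with earlier results of these data known. Genes named by rule are the members, each list's called or, failing that, most abundant genes, the neighbours and the 5 genes most like Isg15. Krt14, Cldn4, Usp5, Herc3, Irf3 and Ifnar2 fall outside this rule and were named because they lay outside the range of the controls.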

Additional observations from a re-analysis of the deposited data

How the results depend on the processing

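The members' values are limited by 3 libraries per group, by vector control 1 and by low depth for Usp18, which had 2 to 60 reads. Another pseudocount (0.5 or 5), no filter, and TMM scaling moved no call of the 5 members by limma and turned no direction, and the median log2 fold change of all genes was -0.0090 under the deposited and -0.013 under the TMM scaling. DESeq2 called 84 genes instead of 0, among them 1 member, Isg15 (log2 fold change 1.89). The direction of Ube2l6 turned with edgeR (-0.20) and DESeq2 (-0.20). When each library was left out in turn, limma gave log2 fold changes from 1.56 to 2.18 for Isg15, 0.95 to 2.26 for Uba7, -0.60 to 0.34 for Ube2l6, -0.026 to 2.08 for Usp18 and 0.28 to 0.64 for Herc6. In these sets 2 to 3 members lay above every remaining control (Herc6 joined without ATM KO 3 or vector control 2). The number below was 0 to 1 (Ube2l6 without vector control 1). With all 6 libraries 5.7% of all tested genes lay above and 5.48% below. Without vector control 1 these shares were 19.6% and 21.8%. They were not computed for the other sets, so the joining of Herc6 has no share of all genes to be read against. DESeq2 with each library left out, added after the data were seen, called 0 to 2 members, with log2 fold changes of 1.67 to 2.19 for Isg15, 0.98 to 1.82 for Uba7 and -0.017 to 1.16 for Usp18. For Ube2l6 these were -0.27, -0.13 and -0.19 without ATM KO 1, 2 and 3, and -0.59, 0.021 and 0.085 without vector control 1, 2 and 3. In the same order DESeq2 called 31, 91, 74, 544, 17 and 22 genes. The causes were not tested.

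Replicate numbers are shared between the groups only as numbers: deviations from the group means correlated at -0.021, -0.58 and 0.53 for numbers 1, 2 and 3, and 0 of the 3 ATM KO libraries correlated best with its own number. With the replicate block limma called 0 genes, as without it, and the log2 fold change of Isg15 was 1.78 with an SE of 0.47.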

Other observations

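No other ubiquitin-like modifier gene tested was called. Of 14 modifier genes named, Ubd was not among the listed genes, and of the 13 tested 8 were positive and 5 negative (7 and 6 by edgeR and DESeq2), with a median log2 fold change of 0.031 and 0 called by limma, edgeR or DESeq2. Sumo3 stood at 5002, 5229 and 4738 normalized read counts in ATM KO 1 to 3, against 7480, 3928 and 3952 in vector controls 1 to 3, so vector control 1 was here the highest library. Nedd8, the modifier of cullin ligases, was also highest in vector control 1, at 1840, 2169 and 1309 in ATM KO 1 to 3, against 2251, 1468 and 1563. Ubb, a polyubiquitin gene, stood at 2629, 2644 and 2406 in ATM KO 1 to 3, against 2466, 2762 and 2653.

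The pattern of Isg15 over the 6 libraries was most closely followed by genes with small log2 fold changes. Among 11325 other tested coding genes, the 5 with the highest Pearson correlation of log2 values with Isg15 were Kidins220 (0.996), Cnpy3 (0.991), Klc1 (0.990), Cyba (0.988) and Rab11fip3 (0.988), all over the same 6 libraries. Their log2 fold changes lay between 0.10 and 0.34, against 1.78 for Isg15. Kidins220 stood at 3295, 3262 and 2910.2 in ATM KO 1 to 3, against 2629, 2675 and 2768 in vector controls 1 to 3. In this order Herc6 came at rank 180 (correlation 0.83), Uba7 at 604 (0.65), Usp18 at 1581 (0.43) and Ube2l6 at 4947 (0.079).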
